A study of Arabidopsis thaliana with 4 samples.

Results

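The measurements concern 5 genes of the immune signalling route at the leaf cell surface, followed in rosette leaves of Arabidopsis thaliana carrying whitefly nymphs. They are FLS2 (AT5G46330), WAK1 (AT1G21250), BIK1 (AT2G39660), RBOHD (AT5G47910) and FRK1 (AT2G19190), each measured by 1 probe set. The BIK1 probe set was found by its symbol in the platform annotation. The other 4 were chosen by ATH1 probe set identifier, namely 248895_at for FLS2, 259561_at for WAK1, 248719_at for RBOHD and 267436_at for FRK1. Their gene names come with that choice, because the annotation used here does not name them. The rule itself uses no measured value. The 5 probe sets are among 22746 on the array after controls, and all 5 were among the 13648 bright enough to test.

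Wild-type plants of ecotype Columbia with and without silverleaf whitefly were compared. The nymphs of this insect, Bemisia tabaci type B, settle on the leaf and take up phloem sap. Infested plants were given 100 adults at an age of 21 days, the adults were aspirated off after 7 days, and rosette leaves were taken 28 days after infestation began, at 7 weeks. Uninfested plants were of the same age, and both groups stood in nylon cages under 8 h of light per day. Each group had 2 one-colour Affymetrix ATH1 arrays. Every array sample is a pool of leaf RNA from 20 plants of 2 experiments, so it averages over plants.

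Leaf cells perceive microbes and wall damage through receptor kinases in the plasma membrane. FLS2 binds a peptide of bacterial flagellin and pairs with a co-receptor, upon which the cytoplasmic kinase BIK1 is phosphorylated and released from the complex. BIK1 in turn phosphorylates RBOHD, the NADPH oxidase that makes superoxide outside the cell. Transcription of early response genes such as FRK1 also follows flagellin perception. WAK1 spans the membrane and binds pectin of the cell wall, and its gene is known to respond to salicylic acid. FRK1 itself encodes a receptor-like kinase, is also known as a senescence-induced gene, and is a described target of the transcription factor WRKY6.

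The arrays were alike in brightness, with median signals from 185.05 to 205.2, and the highest signal of 27 controls for absent bacterial transcripts was between 41.7 and 52.1 per array. All 5 genes read above that level on all 4 arrays. The array infested 2 stood apart, with 26 tested probe sets at least 8-fold above and 8 at least 8-fold below all other arrays, against 0 and 0 on each of the others. The summed signal of 5 heat shock genes was 30936.5 on it against 673.4 to 1018.2 elsewhere. These genes were listed because they stood apart on 1 array in earlier results, so their sum is a description only. The 25S ribosomal RNA control read 94.6 and 133.8 without and 156.9 and 302.8 with nymphs. The ratio of 3′ to 5′ signal for one actin control, a sign of RNA integrity, was 2.70 and 3.88 in uninfested leaves and 5.70 and 6.56 in infested ones. Of 24 markers of leaf and other cell types, 7 had a named probe set. The 3 mesophyll markers summed to 49569.9 and 52351.7 on uninfested and 33961.7 and 26428.9 on infested arrays, and the 2 guard cell markers to 2094.1 and 1994.6 against 1193.7 and 1018.1. Most of the guard cell sum was AT1G22690, with 1840.7 and 1711.1 against 937.6 and 854.2. The other guard cell marker, FMA, overlapped between groups, with 253.4 and 283.5 against 256.1 and 163.9. The trichome marker TRY read 197.8 and 200.9 against 147 and 122.4, and the root marker EXPA7 read 45.1 and 63.9 against 61.4 and 82. None of the 7 was at 0, but EXPA7 was too dim to test. On uninfested 1 it lay below the highest control for absent transcripts on that array, 49.2. In pooled tissue, fewer cells of a type and less RNA per cell cannot be told apart. The part of heat shock, RNA integrity and cell makeup in the results below was not tested.

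**Figure D1:**
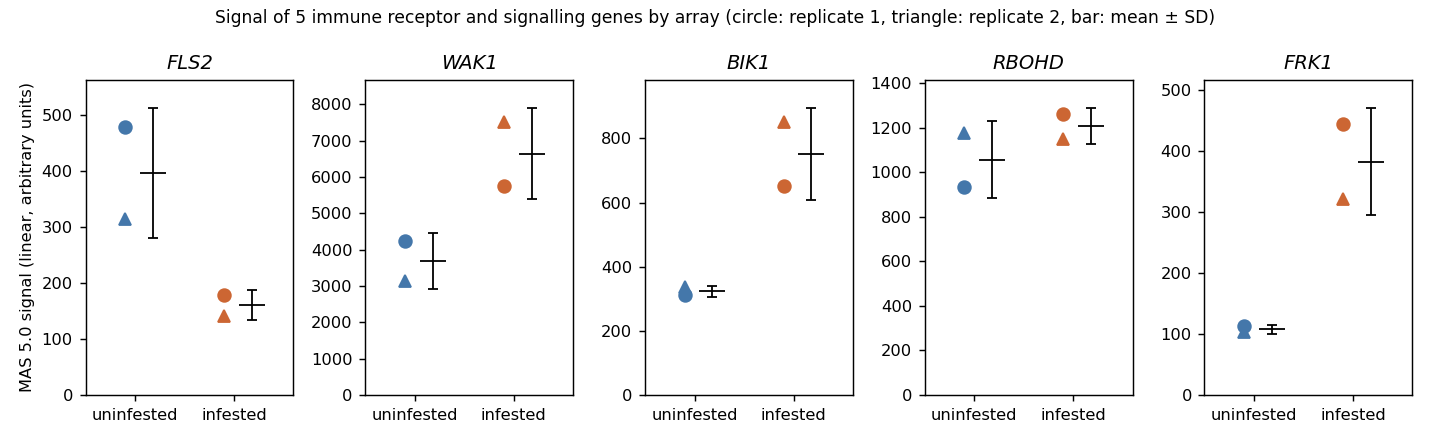
MAS 5.0 signal (vertical axes, linear, arbitrary units, each from 0) of the 5 genes on the 2 uninfested and 2 infested arrays; circles are replicate 1, triangles replicate 2, and the black marks give the mean ± SD. The groups are apart for FLS2, WAK1, BIK1 and FRK1 and overlap for RBOHD, where uninfested 2 (1176.6) lies above infested 2 (1149.9).

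The receptor gene FLS2 gave signals of 478 and 314.2 in uninfested leaves and of 178.8 and 141 in infested leaves. Both infested arrays lay below both uninfested ones, and the uninfested arrays differed from each other by more than the infested ones did. The group means were 396.1 ± 116 (SD, n = 2) and 159.9 ± 26.7, a log2 change of -1.21 ± 0.26 (SE) on log2(signal + 16), or 2.31-fold lower in infested leaves. FLS2 did not pass the test over all probe sets (limma, Benjamini-Hochberg adjusted p = 0.0559). It passed with the replicate number as a block (limma adjusted p = 0.00645), with a difference of -1.34 between the arrays numbered 1 and of -1.07 between those numbered 2. The adjusted p was 0.0435 without infested 2, 0.00685 without infested 1, 0.208 without uninfested 2 and 0.359 without uninfested 1, where the log2 change was -0.92. The mesophyll markers and the guard cell marker AT1G22690 were lower on the same arrays, while the groups overlapped for the guard cell marker FMA. Any link of this to FLS2 was not tested.

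WAK1 gave 4239.6 and 3134.6 without nymphs and 5758.7 and 7523.9 with them. The groups did not overlap, but the lower infested array was only 1.36 times the higher uninfested one, which carries the same replicate number. The means were 3687 ± 781 (SD, n = 2) and 6641 ± 1248, a log2 change of 0.85 ± 0.22 (SE), or 1.80-fold higher in infested leaves. The gene did not pass the test (limma adjusted p = 0.0816), and passed with the replicate block (adjusted p = 0.0250). The change was unequal between pairs, at 0.44 in the first and 1.26 in the second. Without infested 2 it was 0.66 and without infested 1 it was 1.04. Leaving out uninfested 1 gave 1.07 and leaving out uninfested 2 gave 0.63.

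BIK1 rose in infested leaves. Its signal was 311.2 and 335.7 in uninfested leaves and 650.9 and 851.9 in infested leaves. The uninfested arrays were close to each other, and each infested array was between 1.94 and 2.74 times an uninfested one. The means were 323.45 ± 17.3 (SD, n = 2) and 751.4 ± 142, a log2 change of 1.17 ± 0.19 (SE), or 2.24-fold (limma adjusted p = 0.0411). Within the same-numbered pairs, the infested array was 2.09 and 2.54 times as bright. BIK1 kept its call without infested 2, the array that stood apart (0.98, adjusted p = 0.0148), and without infested 1 (1.36, adjusted p = 0.00128). It lost it without uninfested 1 (1.11, adjusted p = 0.284) and without uninfested 2 (1.22, adjusted p = 0.234), fits in which limma called 0 of all tested probe sets. At an unadjusted p under 0.05 there were 854 higher and 786 lower in the former and 1005 and 922 in the latter.

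RBOHD, the oxidase that BIK1 acts on, read 933.2 and 1176.6 without nymphs, and 1262.5 and 1149.9 with them. These values overlapped. The means of 1054.9 ± 172 (SD, n = 2) and 1206.2 ± 79.6 differed by 0.20 ± 0.19 (SE) on the log2 scale, within the spread between arrays (limma adjusted p = 0.527). The 95% interval of this change, from -0.27 to 0.66, holds 0 and is wide enough for a rise of about 1.58-fold or a small decline. The first pair differed by 0.43 and the second by -0.03.

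FRK1, described above both as an early response gene of the route and as a senescence-induced gene, rose most of the 5 on this scale. Its signal was 112.8 and 102.3 in uninfested and 443.9 and 320.4 in infested leaves. Each infested array was at least 2.84 times each uninfested one. The means were 107.55 ± 7.42 (SD, n = 2) and 382.15 ± 87.3, a log2 change of 1.67 ± 0.22 (SE), or 3.19-fold (limma adjusted p = 0.0334). The rise was 1.84 in the first pair and 1.51 in the second. Without infested 2 the change was 1.90 (adjusted p = 0.00364) and without infested 1 it was 1.45 (adjusted p = 0.00278). FRK1 lost its call without uninfested 1 (1.73, adjusted p = 0.196) and without uninfested 2 (1.61, adjusted p = 0.207). Both uninfested signals lay below 116, the signal at the filter on dim probe sets, so FRK1 was tested because of its infested level.

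**Figure D2:**
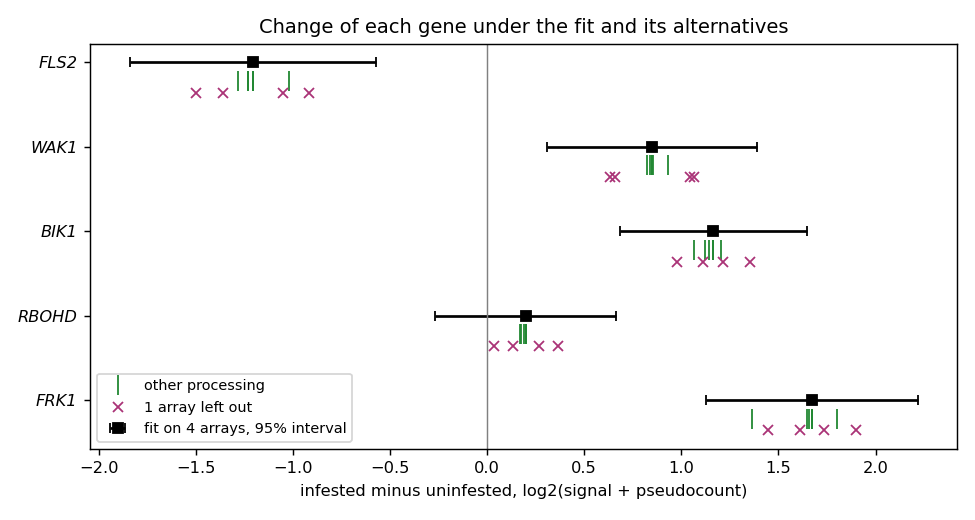
Log2 change of each gene, infested minus uninfested (horizontal axis, log2 of signal plus pseudocount). Squares with bars are the fit on 4 arrays with its unadjusted 95% interval, green ticks are other processing choices, and crosses leave out 1 array. Every value of FLS2 lies below 0 and every value of WAK1, BIK1 and FRK1 above it, while the interval of RBOHD runs from -0.27 to 0.66.

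In all, 2 of the 5 genes rose (BIK1 and FRK1) and 0 were called lower, against 2.83% and 2.54% of all tested probe sets called higher and lower, and 5.37% in either direction. The genes were chosen with earlier results known and FRK1 was tested because of its infested level, so the count is a description and nothing is read from it against these shares. FLS2 and WAK1 had an unadjusted p under 0.05 (0.00376 and 0.00899). With the replicate block 4 of the 5 passed, against 19.5% of all tested probe sets; 3 were higher and 1 lower, against 9.19% and 10.3%. The groups did not overlap for 4 of the 5 genes, which was also true of 61.9% of all tested probe sets (33.8% with the infested arrays above and 28.1% with them below), so that count says little about these genes. FRK1 alone of the 5 was at least 2-fold higher on each infested array than on each uninfested one, as were 2.16% of tested probe sets. None was 2-fold lower in this sense, as were 1.72%. The size of the change placed FRK1 at the 97.6th percentile of all tested probe sets, FLS2 at the 93.9th, BIK1 at the 93.3rd, WAK1 at the 86.8th and RBOHD at the 35.1st.

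The 5 genes thus did not share one direction. The unadjusted 95% interval of the log2 change was -1.84 to -0.57 for FLS2, 0.31 to 1.39 for WAK1, 0.68 to 1.65 for BIK1 and 1.13 to 2.22 for FRK1. The interval of FLS2 did not meet that of any other of the 5. The interval of RBOHD did not meet those of BIK1 and FRK1, while it overlapped that of WAK1. These differences between genes were not tested.

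**Figure D3:**
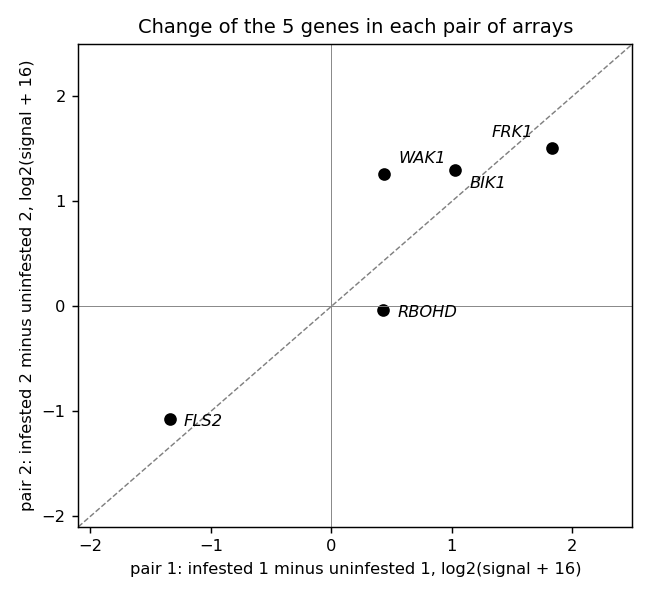
Log2 change of the 5 genes in the first pair of same-numbered arrays (horizontal axis) and in the second (vertical axis), both as log2(signal + 16); the dashed line marks equal change. FLS2, BIK1 and FRK1 lie near the line, WAK1 changed by 0.44 and 1.26, and RBOHD by 0.43 and -0.03.

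The other genes of the route were taken from 10 lists with 203 loci in all, of which 33 besides the 5 genes had a named probe set and 23 of these were tested. Of the 23, 4 were called higher and 0 lower, or 8 and 0 with the replicate block, and the median log2 change was 0.47 against 0.04 over all tested probe sets. Of those tested, 3 (EFR, WRKY6 and AT1G26380) had an uninfested mean below the filter and were tested because of their infested level, so neither the count nor the median supports a shift of the lists. No gene of the lists of calcium-dependent kinases, calcium channels or cysteine-rich receptor-like kinases has a name here.

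Among 7 other tested receptor genes, 0 passed by limma, 2 had an unadjusted p under 0.05, and 1 passed with the block. EFR, which like FLS2 is a receptor for a bacterial protein, in its case elongation factor Tu, went from 97 and 108.3 to 163.2 and 152.3 (log2 change 0.55, adjusted p = 0.150). Its infested arrays lay above the uninfested ones, as for 33.8% of all tested probe sets, where those of FLS2 lay below, as for 28.1%. EFR did not pass and was tested because of its infested level, so this contrast is a description only. AT4G08850 read 1452.2 and 1315.6 against 2080.3 and 3352.3 (0.93, adjusted p = 0.0949, or 0.0211 with the block). THE1, a receptor-like kinase that senses the state of the cell wall, had a log2 change of -0.34 and AT1G27190 one of -0.34, and the remaining 3 lay between -0.23 and 0.22. FLS2 had the lowest value of the 9 receptor genes tested and FRK1 the highest, while 27 of the 36 listed have no named probe set here. FRK1 was tested because of its infested level, so this order is a description only.

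Beside WAK1, 3 related loci were tested, and 0 passed by limma, with 1 at an unadjusted p under 0.05. AT2G23450 had signals of 485.7 and 481.7 in uninfested and of 759.5 and 1354.1 in infested leaves. Its log2 difference was 1.04, with an adjusted p of 0.0954, which the block brought to 0.0159. Like WAK1 it was highest on infested 2. AT1G16260 had a log2 change of 0.16 and AT1G69730 one of -0.13. The signal of AT5G02070 was at most 47.7 and that of AT4G31100 at most 1.6, and neither was tested.

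Of 5 tested loci listed as relatives of BIK1, 0 passed by limma, 2 had an unadjusted p under 0.05 and 1 passed with the block. AT5G47070 went from 811.2 and 784 to 1301.1 and 1724.5 (log2 change 0.90, adjusted p = 0.0585, or 0.0135 with the block). As for BIK1, the uninfested arrays were close together and infested 2 was the highest. AT3G09830 had a log2 change of 0.51, with 1774.7 on infested 2 but 777.6 on infested 1, AT3G28690 had 0.47 and AT5G03320 had 0.35. APK1A, a cytoplasmic kinase of the same family, had a log2 change of -0.06. The other 3 named relatives were too dim to test.

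The route is held in check by ubiquitin ligases of the plant U-box type, and PUB23, one of these, rose from 118.5 and 164.7 to 327.1 and 465.2 (log2 change 1.38, limma adjusted p = 0.0459, or 0.0505 without a variance trend). Its paralog PUB24 had a log2 change of 0.60 (adjusted p = 0.132), and PUB22, too dim to test, read 72 and 94.4 against 155.6 and 128.7. AT3G12620 of the same list had a log2 change of 0.21. Of the oxidase family RBOHD was the single gene bright enough to test, since AT1G19230, AT4G11230 and AT4G25090 read at most 60.7. ATMPK13, the one named gene of the MAP kinase list, read at most 12.1.

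Beside FRK1, 5 genes known to follow flagellin perception were tested, of which 3 rose, or 4 with the block, where 2.83% and 9.19% of all tested probe sets were called higher. AT1G26380 and WRKY6, both among the 3, had an uninfested mean below the filter and were tested because of their infested level, so the count is a description only. AT1G26380 went from 50.1 and 86.4 to 421.7 and 775.3 (log2 change 2.84, limma adjusted p = 0.0323). STZ, a zinc finger repressor of stress responses, rose from 1741.1 and 2100.6 to 3869.5 and 4494.2 (1.12, adjusted p = 0.0385). WRKY6, the factor described as acting on FRK1, rose from 85.9 and 96.3 to 212.8 and 328.5 (1.39, adjusted p = 0.0460, or 0.0536 with quantile normalization). WRKY6 was higher on infested 2 than on infested 1, while FRK1 was higher on infested 1. WRKY53, a regulator of leaf senescence and defence, differed by 1.45 and passed with the block alone (adjusted p = 0.0919 without and 0.00243 with it). WRKY22, placed downstream of flagellin perception, read 181.6 and 228.2 against 192.9 and 245.8, a difference of 0.09 within the spread between arrays. These genes also answer to stimuli other than flagellin, and without uninfested 1 or uninfested 2 limma called 0 of them, as of all probe sets.

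**Figure D4:**
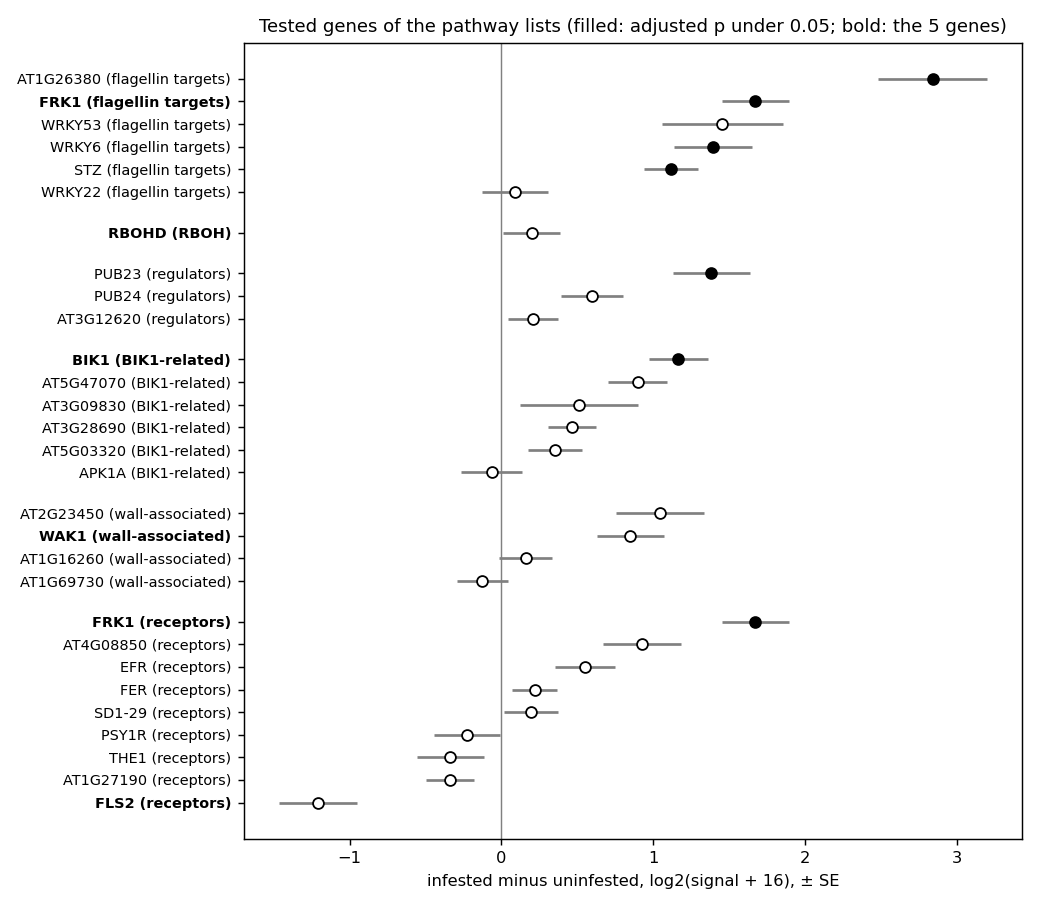
Log2 change, infested minus uninfested, of log2(signal + 16), with its SE, for each tested gene of the pathway lists, grouped by list; filled points have an adjusted p under 0.05 and the 5 genes are in bold (FRK1 stands in both lists that hold it). Filled points are at the right for FRK1, BIK1, PUB23, AT1G26380, WRKY6 and STZ, and FLS2 at -1.21 is the leftmost.

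Among tested probe sets with a gene name, those most like each of the 5 were sought by the distance between log2 values over the 4 arrays, each gene centred on its own mean, and are given as a description. Probe sets without a single gene name lay closer still to FLS2 (0.114) and FRK1 (0.174). The named genes nearest to FLS2 were AT5G57170 (distance 0.117) and AT4G03150 (0.168), which both fell, by 1.26 and 1.28 on the log2 scale (adjusted p = 0.0424 and 0.0459). Nearest to BIK1 were AT5G05110 (0.0370) and AT1G72240 (0.0556), which both rose, by 1.15 and 1.16 (adjusted p = 0.0411 and 0.0405). FRK1 had no close counterpart with a name: AT5G17760 and AT5G64120 were both at 0.295, and rose by 1.69 and 1.51 (adjusted p = 0.0289 and 0.0366). Nearest to WAK1 were AT2G43850 (0.0348) and AT3G48080 (0.0888), and nearest to RBOHD were AT1G70180 (0.0208) and AT4G32020 (0.0354). Over only 4 arrays many probe sets fall close together. Within a distance of 0.3 of RBOHD lay 2156 of 13647 other tested probe sets, against 167 for WAK1, 162 for BIK1, 43 for FLS2 and 4 for FRK1.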

How the data were processed

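The authors deposited MAS 5.0 signal intensity, linear and made with standard parameters, per the labels and the submitters' processing notes, and each array had been scaled to a trimmed mean of 500.04. Detection calls and sequences were not used here. Signals were analysed as log2(signal + 16) without further normalization, on which scale fold changes of dim genes are understated. Left out were 64 control probe sets and 9098 with a mean under the 40th percentile, equal to a signal of 116; 13648 remained. The test was limma 3.58.1 in R 4.3.3 (eBayes with a variance trend, 2 residual and 3.66 prior degrees of freedom), two-sided, tested on simulated data, with a threshold of 0.05 on the Benjamini-Hochberg adjusted p over all 13648. An exact permutation test of 1 gene cannot go below p = 0.333 with 2 arrays against 2. P-values measure the spread between RNA pools, and the number of arrays limits the precision.

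The platform annotation gave 1 gene for 13513 probe sets and several for 503, and 8730 are without a name here; gene numbers matched 13436 to RefSeq of assembly TAIR10.1. A search of annotation names for gene families returned only BIK1. The members and lists were chosen with earlier results of these data known. Named genes were the members, all called and up to 4 further tested genes of each list by size of change, and the 2 genes nearest to each member. Some list genes too dim to test, some markers and some neighbours on the chromosome were named as well.

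Per the series text, the infested and control RNA pools came from the same 2 sets of experiments. Equal replicate numbers were therefore treated as pairs in the pair differences and the blocked fit, while the main test did not use them. The deviations of the paired arrays correlated at 0.264 across probe sets. The blocked fit had 1 residual and 7.26 prior degrees of freedom. Alternatives were other pseudocounts, filters and scalings, the block, no variance trend and leaving out each array.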

Additional observations from a re-analysis of the deposited data

How the results depend on the processing

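No direction of the 5 genes reversed under any of the 12 alternatives in which the gene was tested, but calls did change, and the cause was not tested except where stated. With no filter limma called 0 probe sets in either direction (at an unadjusted p under 0.05, 2453 were higher and 2203 lower) and thus 0 members, BIK1 having 1.17 (adjusted p = 0.0803) and FRK1 1.67 (0.0764); here more probe sets were tested. With a filter at the 60th percentile FLS2 and FRK1 were not tested, which left 1 member called higher. Median scaling gave 342 higher and 589 lower calls and called FLS2 (-1.23, adjusted p = 0.0447), so that 1 member was lower. There 36.7% of calls were higher, against 52.7%. Without a variance trend the lower calls were 199. The replicate block gave 1254 and 1403 calls and added FLS2 (-1.21) as 1 lower member and WAK1 (0.85), and changed no other call among the 5. Leaving out 1 array in turn moved the calls from 0 to 2087 higher and 0 to 2553 lower, and the members called from 0 to 3 higher and 0 to 1 lower. The log2 change then ranged from 0.98 to 1.36 for BIK1, -1.50 to -0.92 for FLS2, 1.45 to 1.90 for FRK1, 0.63 to 1.07 for WAK1 and 0.03 to 0.36 for RBOHD. In these fits the lone array is assumed to vary like the other group. Of 168 list counts under alternatives, with the heat shock list included, 138 stayed within 1.5 times, 16 were lower and 14 higher. Most of the 138 were counts of 0 that stayed 0, so the total says little about stability. The list counts that were above 0 at the chosen settings all fell to 0 with no filter. Signals near 116 limit what can be said of FRK1 in uninfested leaves.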

Other observations

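The genes next to each of the 5 on the chromosome, in the order of the RefSeq annotation of assembly TAIR10.1, were looked at after the members' values were seen. AT2G19180, the neighbour of FRK1 on one side, read 190.6 and 186.9 on uninfested and 350.1 and 354.5 on infested arrays and rose (log2 change 0.85, limma adjusted p = 0.0485), while AT2G19210 on the other side read at most 10.2. The 2 genes that flank BIK1 did not pass: AT2G39650 had a log2 change of 0.32 (limma adjusted p = 0.436) and AT2G39670 one of -0.70 (adjusted p = 0.111, or 0.0390 with the replicate block). AT5G47900, beside RBOHD, had -0.52 (limma adjusted p = 0.154). The neighbours of WAK1, which include WAK2 and WAK3, have no named probe set here, and AT5G46320 beside FLS2 read at most 47.1.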
